A study of Mus musculus with 12 samples.

Results

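The values described here are differences of differences. For each gene the effect of PSA-NCAM enrichment, enriched minus control cells, was taken at step 5 and at step 4 of a neural differentiation protocol, and the step 4 effect was subtracted from the step 5 effect. All 12 of the 12 arrays of the series enter this comparison, 3 in each of 4 groups, and it was computed for 22317 genes from log2 ratios of Cy5 to Cy3. A value above 0 means that enriched cells stood higher relative to their controls at step 5 than at step 4, and a value below 0 that they stood lower.

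The cells descend from C57BL/6 mouse embryonic stem cells (mESC) with an actin-driven eGFP transgene, which all groups carry. Step 5 enriched cells had been selected for PSA-NCAM and belonged to the neuronal differentiation stage, 7 days without bFGF and with ascorbic acid at 200 µM. Step 5 control cells were of that stage and unselected. Step 4 enriched cells were selected neural precursors of the 5-day expansion with bFGF at 10 ng/ml, and step 4 control cells were unselected precursors. Selection used an anti-PSA-NCAM-APC antibody with anti-APC beads after removal of dead cells, and for step 5 the labels do not state if this took place ahead of the 7 days or at their end. The 3 samples of a group are biological replicates per the design text. Every array carried its sample in Cy5 and the same mESC RNA in Cy3, with 0 dye swaps. Replicates 1, 2 and 3 lay on slides 1, 2 and 3, so each slide gives its own value of the difference.

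PSA-NCAM is the neural cell adhesion molecule carrying polysialic acid, a glycan added by the sialyltransferases St8sia2 and St8sia4. It marks migrating neuroblasts, young neurons and some glial precursors. Oligodendrocytes arise from precursors that express Olig2 and Sox10, and on maturing they make the galactolipids and membrane proteins of myelin. Cell division runs through DNA replication, under E2F factors, and mitosis, and both programmes close when neural precursors leave the cycle.

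Ncam1, St8sia2 and St8sia4, the antigen's own genes, rose in enriched cells at both steps by the probe used for each. Other probes of Ncam1 did not pass at step 4. These are RNA values, and the polysialic acid itself was not measured. Correlations between arrays of a group, across genes, ran between 0.94 and 0.962 for step 5 enriched cells, 0.662 and 0.918 for step 5 controls, 0.897 and 0.963 for step 4 enriched cells, and 0.736 and 0.85 for step 4 controls. The control arrays of slide 2 had the lowest mean correlation with the other arrays of their groups, 0.709 at step 5 and 0.762 at step 4, and some results are also given without both of them. The file headers of slide 2 also name another version of Agilent Feature Extraction, the software that gave the spot intensities.

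No gene passed the test of the difference. Of 22317 genes, 0 (0%) had an adjusted p under 0.05 in limma, and 1574 (7.05%) had an unadjusted p under 0.05, 788 (3.53%) above 0 and 786 (3.52%) below. The lowest adjusted p was 0.0542, shared by 7 genes: Ppp1r1b, Ugt8a, Mt1, Apoe, Tead2 and 2 probes without a gene name. The count depended on the fit. It was 65 with arrays weighted by their spread, 18 without step 5 control replicate 2, 6 without step 5 control replicate 3 and 9 without both slide 2 control arrays. With the slide as a block it was 0, with 2321 genes at an unadjusted p under 0.05, and with the 3 slide values of each gene tested against 0 it was 9. The values below are estimates with their errors, and none is called a change between the steps.

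At each step alone the selection had a large effect. At step 5, 4525 genes (20.3%) rose and 4495 (20.1%) fell in enriched cells against controls, and at step 4, 3350 (15%) rose and 3603 (16.1%) fell (limma, adjusted p under 0.05). Of these, 5635 genes passed in the same direction at both steps and 18 in opposite directions. Across genes the median size of the effect was 0.38 at step 5 and 0.33 at step 4 (log2). The median size of their difference was 0.19, below its median standard error of 0.24. The estimated difference was at least 1 in size for 702 genes, 482 above 0 and 220 below. These include genes not well above background on any array of a group, such as Fa2h, whose values are no measured folds.

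**Figure D1:**
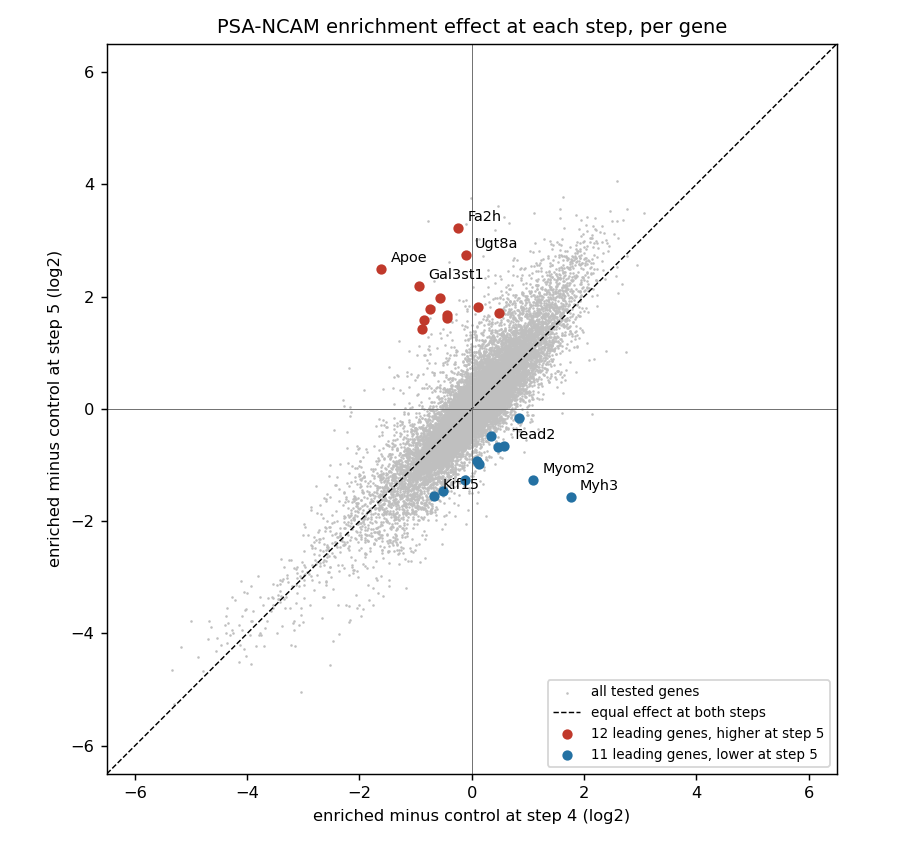
Enrichment effect at step 5 (vertical axis) against the effect at step 4 (horizontal axis), both in log2 enriched minus control, for every tested gene. Distance from the line of equal effects is the difference described here, and the 12 leading genes above 0 and 11 of those below 0, marked in colour, lie on either side of it although none passed the test.

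The leading genes above 0 held enzymes of myelin galactolipids and genes of lipid, metal and peroxide handling. They are the 12 named genes of the smallest p with 1 sign on all slides, and their differences ran between 1.23 and 4.10. Ppp1r1b encodes DARPP-32, a phosphatase inhibitor known from striatal neurons. Its log2 ratios to mESC on slides 1, 2 and 3 were 1.05, 0.93 and 0.99 in step 5 enriched cells, against -0.36, -0.98 and -0.53 in step 5 controls. In step 4 enriched cells they were -1.03, -0.99 and -1.04, against -0.46, -0.85 and -0.43 in step 4 controls. Enriched cells were above every control at step 5 and below every control at step 4. The difference was 2.05 (SE 0.23, 95% interval 1.54 to 2.56, limma adjusted p 0.0542), a 4.14-fold higher ratio at step 5, with 1.98, 2.05 and 2.13 on the slides. Its adjusted p was 0.00651 without both slide 2 control arrays, an alternative chosen after seeing the data. Over all 29 alternatives its limma adjusted p ran between 0.00357 and 0.675, and it passed in 10.

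Ugt8a makes galactosylceramide, a main glycolipid of myelin. It read 2.52, 2.53 and 2.87 in step 5 enriched cells, against -0.09, -0.69 and 0.47 in their controls. In step 4 enriched cells it read -0.49, -0.61 and -0.52, against -0.13, -0.57 and -0.60 in controls. The groups overlapped at step 4 and were apart at step 5. The difference was 2.85 (SE 0.36, interval 2.06 to 3.64, limma adjusted p 0.0542), and the adjusted p was 0.0369 without both slide 2 control arrays. Mt1, Apoe and Tead2 did not pass in that fit. Over all 29 alternatives the limma adjusted p of Ugt8a ran between 0.0109 and 0.457, and it passed in 8.

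Other genes of myelin lipids and membranes were among the 12. Gal3st1 adds the sulphate that turns galactosylceramide into sulphatide. It rose by 2.19 at step 5 (limma adjusted p 0.000647) and fell by 0.93 at step 4 (adjusted p 0.0497), and the difference was 3.13 (SE 0.46, adjusted p 0.0783). Fa2h hydroxylates fatty acids of these lipids. Its measured difference was 3.46 (SE 0.53, adjusted p 0.0899), with 2.93, 4.00 and 3.46 on slides 1, 2 and 3. It was not well above background on any step 4 enriched array, and well above it on 1 of 3 step 4 control arrays, so this is no measured fold. Pllp, the myelin protein plasmolipin, differed by 2.52 (SE 0.43, adjusted p 0.168).

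Apoe, the lipid carrier that astrocytes secrete in brain, had the largest estimate of the 12. Its log2 ratios were 1.44, 1.72 and 2.94 in step 5 enriched cells, against -0.78, -0.43 and -0.16 in controls. The step 4 enriched cells had -2.24, -2.97 and -3.21, against -1.26, -0.81 and -1.52 in controls. It rose by 2.49 at step 5 (limma adjusted p 0.000857) and fell by 1.61 at step 4 (adjusted p 0.0113), and the groups did not overlap at either step. The difference was 4.10 (SE 0.55, interval 2.89 to 5.31, adjusted p 0.0542), a 17.1-fold higher ratio.

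Mt1, a metallothionein that binds zinc and copper, had opposite signs too. It read 3.55, 2.97 and 3.12 in step 5 enriched cells, against 2.03, 1.62 and 1.69 in controls. Step 4 enriched cells gave 0.68, 1.04 and 0.68, against 1.94, 1.85 and 1.28 in controls. It rose by 1.43 at step 5 (limma adjusted p 0.000684) and fell by 0.89 at step 4 (adjusted p 0.0113), and the difference was 2.32 (SE 0.30, adjusted p 0.0542). Prdx6, a peroxiredoxin, differed by 2.54 (SE 0.38, adjusted p 0.0848), and its other probes gave 2.44, 2.60 and 0.73. The first pair of these had a limma adjusted p of 0.047 when all 28219 detected probes were tested. Slc39a12, a zinc transporter, gave 1.71, but it was not well above background on any step 4 array, so this is no measured fold. The remaining genes above 0 were Phyhd1, of the phytanoyl-CoA dioxygenase family, at 2.11, the carbonic anhydrase Car14 at 2.44, and Lypd6b, of the Ly6 family, at 1.23. Lypd6b rose at both steps.

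**Figure D2:**
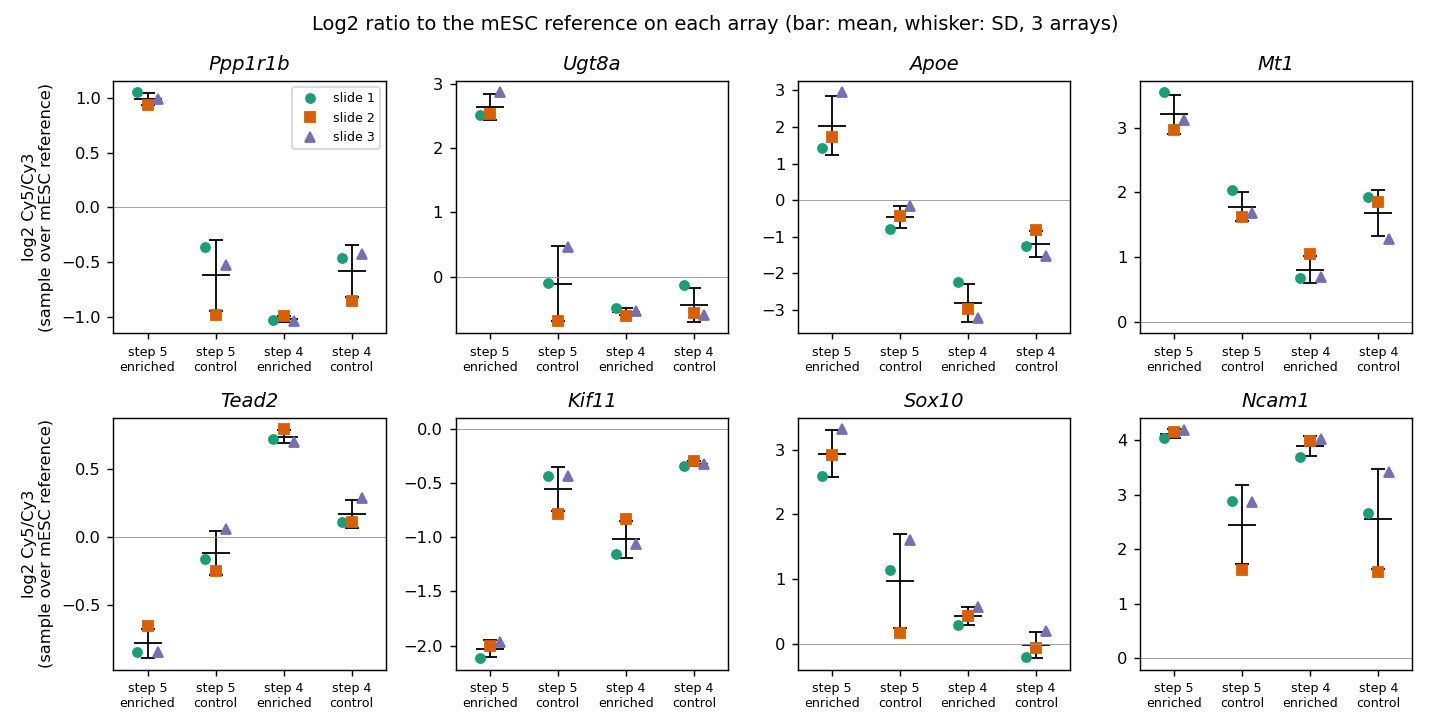
Log2 ratio of each sample to the mESC reference (vertical axis) for 8 genes in the 4 groups, with 1 point per array and the mean and SD of the 3 arrays. Apoe and Mt1 stand above their controls at step 5 and below them at step 4, Tead2 does the reverse, and Ncam1 averages above its controls at both steps.

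The 12 leading genes below 0 held factors of growth signalling, genes of dividing cells and muscle genes. For the 11 given here the differences ran between -3.34 and -0.83. Tead2 is a DNA-binding partner of the growth regulators YAP and TAZ. Its log2 ratios were -0.84, -0.65 and -0.84 in step 5 enriched cells, against -0.16, -0.25 and 0.06 in controls. The step 4 enriched cells had 0.72, 0.79 and 0.70, against 0.11, 0.11 and 0.29 in controls. Enriched cells were the low group at step 5 and the high group at step 4, with no overlap at either. Tead2 fell by 0.66 at step 5 (limma adjusted p 0.00122) and rose by 0.57 at step 4 (adjusted p 0.0044), and the difference was -1.23 (SE 0.16, interval -1.57 to -0.88, adjusted p 0.0542). Its other probe gave -1.48.

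Tgif2, a homeobox corepressor, read -1.78, -1.62 and -1.59 in step 5 enriched cells, against -0.33, -0.35 and -0.52 in controls. In step 4 enriched cells it read -0.61, -0.72 and -0.90, against -0.49, -0.67 and -0.69 in controls, where the groups overlapped. The difference was -1.14 (SE 0.16, limma adjusted p 0.0626). Gli2, a transcription factor of the hedgehog pathway, fell by 0.93 at step 5, was 0.10 at step 4 (adjusted p 0.619) and differed by -1.04. The mitotic kinesin Kif15 and Shcbp1 fell at both steps and differed by -0.88 and -0.95. Igf2bp3, an RNA-binding protein, differed by -1.11, the metalloprotease Adam8 by -1.14 and the ephrin Efna4 by -0.83.

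A pair of muscle genes gave the largest negative values of these 11. Myh3, the embryonic myosin heavy chain, read -2.72, -2.18 and -2.95 in step 5 enriched cells, against -1.28, -0.04 and -1.80 in controls. In step 4 enriched cells it read 1.37, 0.97 and 0.21, against -1.21, -0.91 and -0.61 in controls. It fell by 1.58 at step 5 (limma adjusted p 0.0151) and rose by 1.76 at step 4 (adjusted p 0.0126), and the difference was -3.34 (SE 0.61, adjusted p 0.173). A second Myh3 probe gave -2.90. Myom2, of the sarcomere's M band, differed by -2.36, and Sln, sarcolipin, by -1.0. The Sln value depended on the processing and lay between -2.67 and -0.86 over 28 alternatives. Of 23 tested muscle genes 18 were below 0, with a median of -0.25, and 5 had an unadjusted p under 0.05, against 3.52% of all genes, among them Myl4 at -2.16 and Actn2 at -1.96. The median ratio of the list was 0.08, 0.22 and 0.26 in step 5 enriched cells and 0.25, 0.88 and 0.35 in step 5 controls. It was 0.76, 0.41 and 0.25 in step 4 enriched cells and 0.31, 0.48 and 0.27 in step 4 controls, so the groups overlapped at both steps. The median difference was -0.13 without step 4 enriched replicate 1 and -0.52 without step 4 control replicate 2. In these bulk samples fewer cells of a type and less RNA per cell cannot be told apart.

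**Figure D3:**
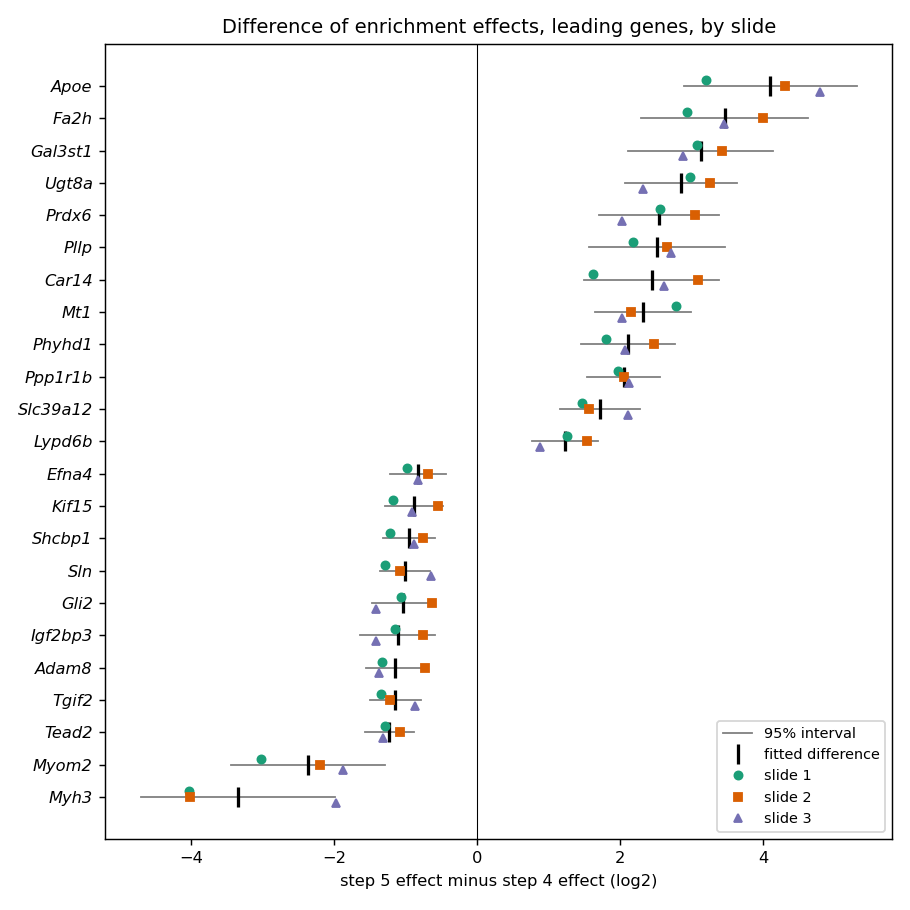
Step 5 effect minus step 4 effect (log2, horizontal axis) for 23 of the 24 leading genes, with 1 symbol per slide, the fitted difference and its 95% interval. The rule that chose the genes fixes 1 sign on every slide, and the slide values of Ppp1r1b lie within a narrow range while those of Myh3 spread widely.

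Oligodendrocyte genes had the largest median difference of the 35 lists, 1.50 against -0.01 for all genes. All 24 members were tested and 24 lay above 0, against 10664 of all 22317 genes. None passed the test of the difference, 14 had an unadjusted p under 0.05 above 0, against 3.53% of all genes, and 20 were above 0 on every slide, as were 20.5% of all genes. At step 5, 18 members rose in enriched cells, against 20.3% of all genes, and 0 fell. At step 4, 1 rose, Sirt2, against 15% of all genes, and 0 fell. The list's median ratio was 2.25, 2.38 and 3.01 in step 5 enriched cells, against 0.86, -0.12 and 1.19 in controls. It was -0.08, 0.32 and 0.35 in step 4 enriched cells, against -0.04, -0.11 and 0.10 in controls. Enpp6, Myrf, Omg and Gpr17 were not well above background on any array of at least 1 group, so their differences are no measured folds.

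Among the lineage's transcription factors, Sox10 read 2.58, 2.91 and 3.31 in step 5 enriched cells, against 1.13, 0.17 and 1.60 in controls. At step 4 it read 0.29, 0.42 and 0.56 in enriched cells, against -0.21, -0.06 and 0.19 in controls. The difference was 1.52 (SE 0.44, limma adjusted p 0.423). Olig2 differed by 1.25 (SE 0.47), Olig1 by 1.60 (SE 0.77), and Nkx2-2 and Sox8 by 1.17 and 1.25. Each of these 5 rose at step 5, and none passed the test at step 4.

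Several myelin genes had larger estimates. Mobp, a protein of compact myelin, differed by 1.74 (SE 0.31, adjusted p 0.168). Bcas1, a marker of newly forming oligodendrocytes, differed by 4.12, the adhesion protein Mag by 3.40 and the phosphodiesterase Cnp by 2.85, and these 3 were chosen after their values were seen. The slide 2 control array at step 5 was the lowest of its group for Sox10. The list's median was 1.16 without both slide 2 control arrays, and between 1.08 and 1.79 over all alternatives.

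Other members were near 0 or depended on the probe. Pdgfra, the growth factor receptor of oligodendrocyte precursors, differed by 0.63 (SE 0.83) and Cspg4, the NG2 proteoglycan, by 0.21 (SE 0.55). For Mbp, the myelin basic protein, the probe of highest mean intensity gave 0.06 and another gave 0.05. A further Mbp probe gave 2.52, with 2.34, 3.07 and 2.13 on slides 1, 2 and 3 and a limma adjusted p of 0.0476 when all 28219 detected probes were tested. Which transcripts these probes read was not analysed here. A second probe of Enpp6 gave 2.47 (adjusted p 0.0476 over all probes). These 4 genes were chosen after their values were seen.

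**Figure D4:**
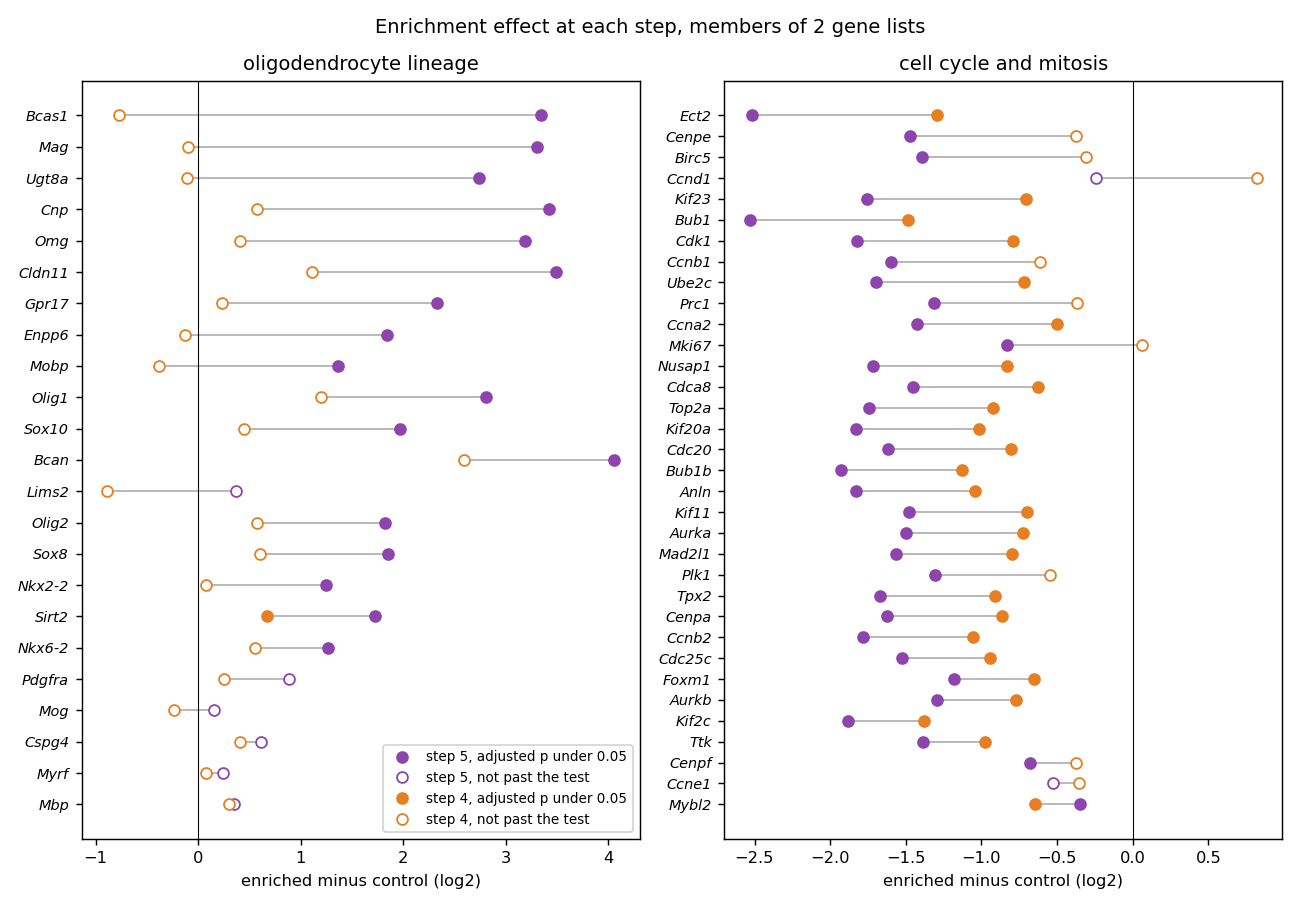
Enrichment effect (log2 enriched minus control, horizontal axis) at step 5 and step 4 for 23 members of the oligodendrocyte list and all 34 of the cell cycle list, filled where that step's effect passed the test. The step 5 effect exceeds the step 4 effect for all 23 oligodendrocyte genes shown and lies below it for 33 of 34 cell cycle genes.

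Astrocyte genes had a median difference of 1.11 over 22 tested members, 20 of them above 0 and 5 at an unadjusted p under 0.05 above 0, against 3.53% of all genes. With slide values tested against 0, 13 members had such a p above 0 and 0 below. In that fit 4385 of 22316 genes had one in either direction. At step 5, 14 rose, against 20.3% of all genes, and 0 fell. At step 4, 1 rose, against 15%, and 1 fell, Apoe, against 16.1%. Gjb6, the gap junction protein connexin 30, gave 2.90 (SE 0.62, limma adjusted p 0.293). It was not well above background on any step 4 control array, and well above it on 1 of 3 step 4 enriched arrays, so this is no measured fold. Gfap, the astrocyte intermediate filament, read 5.47, 6.74 and 6.78 in step 5 enriched cells, against 4.92, 0.59 and 5.51 in controls. Ratios at step 4 were -0.29, 1.37 and 0.93 in enriched cells, against 0.11, -0.41 and 0.14 in controls. The slide 2 control array at step 5 was far below the other controls. Gfap differed by 1.93 (SE 1.49, adjusted p 0.904), and by 0.57 without both slide 2 control arrays. Aldoc, an aldolase of astrocytes, rose at both steps and differed by 0.42 (SE 1.21), and by 0.17 without those arrays. The list's median was 0.70 without both of them, 0.45 without step 5 control replicate 2 alone and 0.47 with array weights.

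Oxidative stress and metal genes had a median difference of 0.40 over 26 members, 19 above 0 and 6 at an unadjusted p under 0.05 above 0, against 3.53% of all genes. Without step 4 control replicate 1 the count at that p was 3. At step 5, 7 rose, against 20.3% of all genes, and 8 fell, against 20.1%. At step 4, 2 rose, against 15%, and 10 fell, against 16.1%. Gclm, the modifier subunit of the first enzyme of glutathione synthesis, fell by 1.38 at step 4 (limma adjusted p 0.000852), was -0.46 at step 5 (adjusted p 0.0789) and differed by 0.92 (SE 0.27). Nqo1, a quinone reductase, fell at both steps and differed by 1.34, and the metallothionein Mt2 differed by 1.56. These last 2 were chosen after their values were seen.

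Cell cycle genes lay below 0 almost throughout. Of 34 tested members, 33 were below 0 and 26 had an unadjusted p under 0.05 below 0, against 3.52% of all genes. The median difference was -0.80, with slide medians of -1.18, -0.19 and -1.01. At step 5, 32 members fell in enriched cells, against 20.1% of all genes, and at step 4, 25 fell, against 16.1%, and 0 rose at either step. Kif11, the kinesin that separates spindle poles, read -2.12, -2.0 and -1.97 in step 5 enriched cells, against -0.43, -0.78 and -0.44 in controls. At step 4 it read -1.16, -0.83 and -1.06 in enriched cells, against -0.34, -0.29 and -0.32 in controls. It fell at both steps, by 1.48 at step 5 and by 0.70 at step 4, with no overlap of groups. The difference was -0.78 (SE 0.18, interval -1.17 to -0.39, limma adjusted p 0.293).

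Ccna2, the cyclin of S phase and mitotic entry, differed by -0.93 (SE 0.21, limma adjusted p 0.293) and also fell at both steps. Mki67, which encodes the Ki-67 antigen of cycling cells, fell by 0.83 at step 5 (adjusted p 0.0176), was 0.06 at step 4 (adjusted p 0.867) and differed by -0.89 (SE 0.33). Mybl2 was the single member above 0, at 0.30. The list's median ratio was -2.17, -1.82 and -2.15 in step 5 enriched cells, against -0.52, -0.77 and -0.30 in controls. It was -1.07, -1.12 and -1.34 in step 4 enriched cells, against -0.52, -0.26 and -0.33 in controls, with no overlap at either step. Without both slide 2 control arrays the median difference was -1.05, and 29 members had an unadjusted p under 0.05. Without slide 1 the median was -0.63 and 4 members had such a p. Of 22317 genes, 1836 had such a p in either direction without both slide 2 control arrays and 1308 without slide 1. Over all alternatives the median lay between -1.13 and -0.63. The count lay between 4 and 31 with each gene tested once. The 31 came from the deposited table and with array weights, where 1459 and 3621 of 22317 genes had such a p in either direction. The count was 33 with all detected probes tested, where a gene can count more than once and 1980 of 28219 probes had such a p.

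DNA replication genes had the same sign, with a median of -0.65 and 31 of 33 below 0. The unadjusted p was under 0.05 below 0 for 14 members, against 3.52% of all genes. This count was lowest at 2, without slide 1, where 1308 of 22317 genes had an unadjusted p under 0.05 in either direction. It was highest at 24, with slide values tested against 0, with array weights and without step 5 control replicate 2. In those fits 4385 of 22316, 3621 of 22317 and 2382 of 22317 genes, in that order, had such a p in either direction. At step 5, 29 members fell, against 20.1% of all genes, and at step 4, 23 fell, against 16.1%. E2f1, a transcription factor of S phase entry, read -2.43, -1.70 and -2.35 in step 5 enriched cells, against -0.17, -0.60 and -0.19 in controls. At step 4 it read -0.88, -1.06 and -1.25 in enriched cells, against -0.34, -0.54 and -0.35 in controls. It fell at both steps and differed by -1.19 (SE 0.28, limma adjusted p 0.32). Rrm1, the large subunit of ribonucleotide reductase, fell by 1.02 at step 5 (adjusted p 0.000978), was -0.18 at step 4 (adjusted p 0.429) and differed by -0.84 (SE 0.23, adjusted p 0.388).

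Promoters of the lists that lay together below 0 were searched for motifs known from such genes, on both strands of the 250 bases before the RefSeq start site (GRCm38.p6). TTTGAA is the core of the cell cycle homology region of mitotic genes, CCAAT binds NF-Y and TTCCCGC is an E2F site. TTTGAA was found in 10 of the 27 cell cycle genes with a listed promoter (37%), in 5 of 28 DNA replication genes (17.9%) and in 1 of 15 cholesterol genes (6.67%), against 18.3% of 27018 genes. CCAAT was found in 20 of 27 cell cycle genes (74.1%), in 18 of 28 DNA replication genes (64.3%) and in 15 of 15 cholesterol genes (100%), against 37.5% of all. TTCCCGC was found in 9 of 28 DNA replication genes (32.1%), in 3 of 15 cholesterol genes (20%) and in 0 of 27 cell cycle genes, against 4.38% of all. Among oligodendrocyte genes, which lay above 0, CCAAT was found in 6 of 15 (40%), and TTTGAA and TTCCCGC in 1 each. These are letter matches, and binding was not measured. One promoter per list is shown because it carries motifs just counted, 5′ to 3′ on the gene's strand, with every match of these 3 motifs, on either strand, in capitals. Kif11 lies at chr19:37376132-37376381 on the plus strand, with TTTGAA and CCAAT on the opposite strand. Rrm1 lies at chr7:102441445-102441694 on the plus strand, with TTCCCGC and 2 matches of CCAAT on its own strand. Ebp lies at chrX:8193513-8193762 on the minus strand, with 2 matches of CCAAT on the opposite strand.
Kif11: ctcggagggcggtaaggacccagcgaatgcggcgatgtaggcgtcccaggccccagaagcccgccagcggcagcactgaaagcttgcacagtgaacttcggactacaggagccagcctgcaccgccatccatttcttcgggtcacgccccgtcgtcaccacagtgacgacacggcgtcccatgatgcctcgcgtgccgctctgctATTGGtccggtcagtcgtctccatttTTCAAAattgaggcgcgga
Rrm1: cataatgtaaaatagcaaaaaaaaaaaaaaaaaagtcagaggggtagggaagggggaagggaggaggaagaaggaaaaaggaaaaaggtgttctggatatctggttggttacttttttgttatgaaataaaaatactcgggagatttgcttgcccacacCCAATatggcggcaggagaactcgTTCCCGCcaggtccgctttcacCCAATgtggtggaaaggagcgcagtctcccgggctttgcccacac
Ebp: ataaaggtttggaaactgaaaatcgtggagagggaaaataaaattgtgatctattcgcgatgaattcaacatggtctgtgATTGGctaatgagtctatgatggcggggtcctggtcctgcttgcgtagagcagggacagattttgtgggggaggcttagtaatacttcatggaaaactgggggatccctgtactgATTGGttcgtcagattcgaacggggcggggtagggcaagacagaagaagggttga

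Cholesterol synthesis genes were all below 0, 24 of 24, with a median of -0.37 and 5 at an unadjusted p under 0.05, against 3.52% of all genes. The median was -0.09 without step 4 enriched replicate 3, -0.22 without step 4 control replicate 2, -0.23 without step 5 enriched replicate 3, -0.63 without step 4 enriched replicate 1 and -0.69 without slide 1. Their slide medians were 0.18, -0.58 and -0.79, so slide 1 had the other sign, and 8 members were below 0 on every slide, as were 22.8% of all genes. At step 5, 7 rose, against 20.3% of all genes, and 2 fell, against 20.1%. At step 4, 13 rose, against 15%, and 0 fell. Stard4, a sterol carrier, read -0.67, -0.82 and -0.49 in step 5 enriched cells, against -0.49, -0.64 and -0.52 in controls. Its step 4 ratios were 0.76, 0.96 and 1.72 in enriched cells, against 0.25, -0.26 and 0.51 in controls. It was -0.11 at step 5 (limma adjusted p 0.764), rose by 0.98 at step 4 (adjusted p 0.0143) and differed by -1.09 (SE 0.35, adjusted p 0.501). Ebp, the sterol isomerase whose promoter is shown above, differed by -0.59 (SE 0.20). The sterol response motif TCACNCCAC, searched in the same windows, was found in 1 of 15 cholesterol promoters, against 1.23% of all genes.

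**Figure D5:**
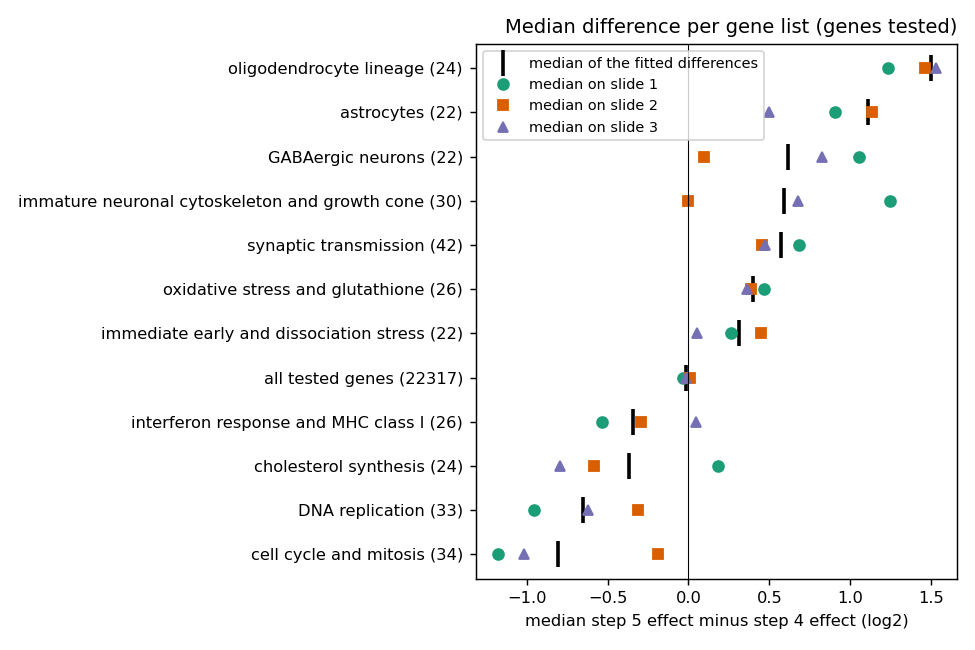
Median difference (step 5 effect minus step 4 effect, log2, horizontal axis) of the 11 gene lists whose median lay over 0.3 from that of all genes, and of all tested genes, with medians of the fitted differences and of each slide. The oligodendrocyte list lies above 1 and the cell cycle list below 0 on every slide. The cholesterol list has the other sign on slide 1 and the interferon list on slide 3. The immature neuronal cytoskeleton list lies just below 0 on slide 2.

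Of 30 genes of the immature neuronal cytoskeleton, 22 rose, against 20.3% of all genes, and 2 fell at step 5, and 13 rose, against 15%, and 2 fell at step 4. Their median difference was 0.59, with 27 above 0 and 0 at an unadjusted p under 0.05. The slide medians were 1.25, -0.0013 and 0.68. With slide values tested against 0, 13 members had such a p above 0 and 0 below. In that fit 4385 of 22316 genes had one in either direction. Dcx, the microtubule protein of migrating neuroblasts, read 5.00, 5.64 and 6.03 in step 5 enriched cells, against 2.71, 1.13 and 2.63 in controls. At step 4 it read 3.77, 6.17 and 6.38 in enriched cells, against 2.90, 2.00 and 4.82 in controls. The difference was 1.20 (SE 1.16, interval -1.38 to 3.77, limma adjusted p 0.932), with a range of 0.36 to 1.82 when an array or slide was left out, and its other probes gave 0.39 and 0.05. Map2, a dendritic microtubule protein, differed by 0.98 (SE 1.00) and Tubb3, the neuronal tubulin, by 0.77 (SE 1.33). Leaving out step 4 control replicate 3 put the list's median at 0.08, and leaving out replicate 2 of that group put it at 1.07. It was 0.09 without step 4 enriched replicate 1 and 0.16 without step 5 control replicate 2.

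Synaptic genes had a median of 0.57 over 42 members, 33 above 0 and 5 at an unadjusted p under 0.05 above 0, against 3.53% of all genes. With slide values tested against 0, 23 members had such a p above 0 and 2 below. In that fit 4385 of 22316 genes had one in either direction. At step 5, 31 rose, against 20.3% of all genes, and 2 fell, and at step 4, 12 rose, against 15%, and 1 fell. Vamp2, the vesicle SNARE, read 3.36, 3.26 and 3.03 in step 5 enriched cells, against 1.41, 1.13 and 1.59 in controls. At step 4 it read 1.86, 2.12 and 2.24 in enriched cells, against 0.99, 0.97 and 1.65 in controls. It rose at both steps and differed by 0.97 (SE 0.28, interval 0.34 to 1.59, limma adjusted p 0.423). Grin1, the obligatory NMDA receptor subunit, rose by 1.02 at step 5 (adjusted p 0.00329), was 0.14 at step 4 (adjusted p 0.656) and differed by 0.88. Leaving out step 4 control replicate 3 gave a list median of 0.19, and leaving out step 4 control replicate 2 gave 0.84.

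GABAergic genes had a median of 0.62 over 22 members, 20 above 0 and 2 at an unadjusted p under 0.05 above 0, against 3.53% of all genes. With slide values tested against 0, 10 members had such a p above 0 and 1 below. In that fit 4385 of 22316 genes had one in either direction. At step 5, 18 rose, against 20.3% of all genes, and at step 4, 6 rose, against 15%. Gad1, an enzyme of GABA synthesis, read 4.14, 3.11 and 3.52 in step 5 enriched cells, against 0.41, -0.69 and 0.39 in controls. Step 4 enriched cells gave -0.24, 0.78 and 2.75, against -1.28, -1.85 and 1.73 in step 4 controls, where slide 3 was high in both groups. It rose by 3.55 at step 5 (limma adjusted p 0.0121) and differed by 1.99 (SE 1.31, interval -0.92 to 4.90). The list's median was 0.23 without step 4 enriched replicate 1 and 1.08 without step 4 control replicate 2.

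Ncam1 and both polysialyltransferases rose at both steps. Ncam1 rose by 1.67 at step 5 (limma adjusted p 0.0112) and by 1.34 at step 4 (adjusted p 0.0371), with a difference of 0.33 (SE 0.61, interval -1.02 to 1.67). Its other probes gave 1.19 (SE 0.28) and 1.50 (SE 0.38), and neither passed at step 4. St8sia2 rose by 1.28 and 1.37 at steps 5 and 4 and differed by -0.10 (SE 0.38), and by -0.24 without both slide 2 control arrays. St8sia4 rose by 2.69 and 1.86 and differed by 0.83 (SE 0.89), with a range of 0.24 to 1.30 when an array or slide was left out. St8sia5, a related sialyltransferase, differed by 1.86 (SE 0.70). Ncam2 gave 0.82 (SE 0.27), but it was not well above background on any step 4 control array, so this is no measured fold.

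Of 33 pluripotency genes, 31 fell at step 5, against 20.1% of all genes, and 30 at step 4, against 16.1%. Their median difference was 0.26. Pou5f1, the Oct4 gene, fell by 3.35 at step 5 and by 3.78 at step 4 and differed by 0.43 (SE 0.68). The germ cell gene Ddx4 differed by 0.59 (SE 0.83) and the growth factor gene Fgf4 by 0.68 (SE 1.20). The median of 29 neural stem cell and radial glia genes was 0.02. Nes, the filament of neural precursors, rose by 1.17 at step 4 (limma adjusted p 0.0417), was 0.30 at step 5 (adjusted p 0.578) and differed by -0.88 (SE 0.55). Hes5, an effector of Notch, differed by 2.15 (SE 1.30), Pax6 by -0.28 (SE 0.36) and Sox2 by -0.05 (SE 0.38). Bcan, the proteoglycan brevican, differed by 1.47 (SE 1.86), with a range of 0.06 to 2.49 when an array or slide was left out.

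Immediate early genes, which respond to dissociation among other stimuli, had a median of 0.31 over 22 tested members, 2 at an unadjusted p under 0.05 above 0, against 3.53% of all genes. Omitting step 4 control replicate 2 put this median at 0.11, and omitting replicate 1 of the step 5 controls put it at 0.19. Fos, of the AP-1 factor, rose by 1.83 at step 5 (limma adjusted p 0.00377), was -0.05 at step 4 (adjusted p 0.933) and differed by 1.89 (SE 0.54). Nr4a1, an orphan nuclear receptor, fell by 1.33 at step 4 (adjusted p 0.0285) and differed by 1.93 (SE 0.56). The part of this response in the other results was not tested. Interferon and MHC genes had a median of -0.34 over 26 members, 19 below 0 and 0 at an unadjusted p under 0.05. The slide medians of these genes were -0.53, -0.29 and 0.05, so slide 3 had the other sign. Their median was -0.06 without step 5 enriched replicate 1, -0.07 without step 4 control replicate 1, -0.09 without step 4 enriched replicate 2 and -0.53 without step 5 control replicate 1. H2-K1, an MHC class I gene, differed by -0.88 (SE 0.45).

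The other 24 lists had medians between -0.28 and 0.26. Among markers of other cell types the median was -0.28 for mesenchyme, -0.24 for epithelium, -0.18 for endoderm, -0.01 for blood and microglia, 0.05 for endothelium and 0.01 for neural crest. The mesenchyme median was -0.64 without both slide 2 control arrays, where 5 of 30 members had an unadjusted p under 0.05 below 0, against 0 with them. In that fit 1836 of 22317 genes had such a p in either direction. Single members had larger values without passing the test. Tnr, a tenascin of brain matrix, differed by 1.20 (SE 0.27), Col23a1, a transmembrane collagen, by 1.56 (SE 0.28) and Pfkm, the muscle-type phosphofructokinase, by 0.97 (SE 0.22). Aqp3, a water and glycerol channel of epithelia, fell by 5.05 at step 5 and by 3.04 at step 4 and differed by -2.01 (SE 0.73, limma adjusted p 0.585).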

How the data were processed

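Each array's scanner intensities are as the authors deposited them: mean and background intensity of both channels and a log10 ratio per spot, from Agilent Feature Extraction per the file headers. The deposited log2 table matched the scanner's log ratio within 0.001 for 99.3 to 99.5% of probes and served as an alternative. The probe positions in the files are on mm9.

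Both channels were background-corrected (normexp, offset 50), ratios were loess-normalized within arrays, and control and outlier-flagged spots were left out (128 to 298 flagged spots per array). Per array, 25595 to 29072 of 39429 probes had a detected Cy5 signal, and the number of arrays limits the precision. A probe was kept if the flag for Cy5 above background was set in all 3 replicates of any group (28219 probes), and the probe of highest mean intensity stood for each of 22317 genes. The 4 group means were fitted in limma 3.58.1 (R 4.3.3) without the slide as a block, with Benjamini-Hochberg adjustment over all genes at 0.05. The fit was also run on simulated data with independent errors on each array. Those data held no slide effect, so that run cannot check the fit for one. Of the 39429 probes, 9739 had no gene name.

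Replicate numbers are slides, and array position on the slide follows the group, so position and group cannot be told apart. Deviations of same-numbered arrays from their group means correlated between -0.134 and 0.747, above 0.1 in 16 of 18 cases. As not all were above 0.1, the numbers were not taken to pair the samples, and the fits with the slide as a block are given beside the main count.

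Named genes were the 12 of the smallest p in each direction with 1 sign on all slides, a fixed set of markers, and the leading members of each of 35 lists. Lists are described where their median lay over 0.3 from that of all genes. The muscle list, at -0.25, and the pluripotency list, at 0.26, fall outside this rule but also have sentences of their own. The members and lists were chosen with earlier results of these data known. Some genes are not reported here.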

Additional observations from a re-analysis of the deposited data

Results flagged for a closer look

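For 19 named genes the enrichment effects at step 5 and step 4 had opposite signs on all 3 slides. None passed limma's test of the difference, with adjusted p values between 0.0542 and 0.639, so a difference between the steps is not shown for any of them. Over all 22317 genes, 173 were up at step 5 and down at step 4 on every slide, and 168 were the reverse.

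Above controls at step 5 and below them at step 4 were Ppp1r1b (difference 2.05), Mt1 (2.32), Apoe (4.10), Phyhd1 (2.11), Gal3st1 (3.13), Prdx6 (2.54), Pllp (2.52), Car14 (2.44), Mobp (1.74), Nr4a1 (1.93) and Mitf (1.36). Below controls at step 5 and above them at step 4 were Tead2 (-1.23), Adam8 (-1.14), Myh3 (-3.34), Gli2 (-1.04), Myom2 (-2.36), Igf2bp3 (-1.11), Efna4 (-0.83) and Il17rd (-1.51).

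Gene by gene the signs rest on unequal effects. Gli2 was -0.93 at step 5 and 0.10 at step 4, and Igf2bp3 was -0.99 and 0.12, while Apoe was 2.49 and -1.61.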

How the results depend on the processing

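The count of genes past limma's test of the difference, 0 as reported, was above 0 under 14 of 29 alternatives, and the cause was not tested. It was 7 with no background correction and with an intensity trend, 1 from the deposited table and with median centring, 4 with arrays centred on the tested genes, 14 over all probes and 65 with array weights. It was 9 without both slide 2 control arrays, an alternative chosen after seeing the data, and between 0 and 18 with an array or slide left out. With the slide as a replicate block it was 0, and with slide values tested against 0, the paired form, it was 9.

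At step 5 the count lay between 4325 and 9176 with an array or slide left out, and at step 4 between 1982 and 7713, the lowest both without replicate 3. With median centring, 5958 genes rose and 3059 fell at step 5, and 4791 rose and 2576 fell at step 4.

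The sign of the 24 leading genes and of the medians of the 11 lists chosen by the 0.3 rule was the same under every alternative run, which their choice largely fixes. Medians of lists not so chosen changed sign, between -0.17 and 0.53 for glycolysis and hypoxia and between -0.21 and 0.51 for pluripotency. Of 3231 values of named genes 25 took the other sign, in 9 genes. St8sia2 was 0.27 with no background correction, 0.21 with an offset of 0 and 0.84 from the deposited table. Sox2 was 0.0085 with median centring. With array weights Aldoc was -0.25, Fgf4 -0.11 and Ddx4 -0.021. Asz1, a germ cell gene, was 0.064 from the deposited table. With an array or slide left out, the difference lay between -0.10 and 0.81 for Ncam1, -0.43 and 0.11 for St8sia2, -0.14 and 1.61 for Tubb3, -0.31 and 0.16 for Sox2, -0.58 and 1.17 for Aldoc, -0.14 and 0.90 for Pou5f1, -0.21 and 1.63 for Fgf4, and -0.12 and 1.16 for Ddx4. Genes not well above background on any array of a group have no measured difference.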
